A study of Homo sapiens with 6 samples.

Results

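The antiviral effector genes that interferon induces were followed in a VprBP knockdown. VprBP is a protein kinase and ubiquitin ligase adaptor that the gene DCAF1 encodes. The 10 genes were chosen by name as textbook effectors of the interferon response, by a rule that sets no limit on their measured values: IFIT1, IFIT2, IFIT3, ISG15, MX1, OAS1, OAS2, OAS3, IFI6 and IFI27. Earlier results of these data were known when they were chosen, so the choice was not blind to the data. All 10 are among the 21494 genes of the table, and all 10 passed the filter on low counts with 16756 genes in all, IFI27 through its Control sh samples. RNA-seq was available for 6 samples labelled as the human melanoma line G361. Of these, 3 carried a control shRNA (Control sh, genotype WT) and 3 an shRNA against the coding region of VprBP (VprBP sh, genotype DCAF1 Knockdown). According to the study's methods the hairpin was delivered by a lentiviral pLKO.1 vector and infected cells were kept under puromycin, so the knockdown is a selected cell population that rests on a single hairpin sequence. The labels name no interferon treatment. Nothing in the labels says whether the replicates are separate cultures, so p-values measure only the spread between these samples, which may be technical.

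Cells sense viral nucleic acid and release type I interferon, which binds the receptor formed by IFNAR1 and IFNAR2. The kinases JAK1 and TYK2 then activate the complex ISGF3, which contains STAT2 and IRF9 and binds a short promoter element, the interferon-stimulated response element (ISRE). The genes it switches on block viruses at separate steps. IFIT proteins bind foreign RNA and hold back its translation, ISG15 is a ubiquitin-like protein that is attached to other proteins, the OAS enzymes make oligoadenylates that set off the decay of RNA, MX1 is a GTPase that traps viral ribonucleoproteins, and IFI6 and IFI27 are small membrane proteins. Many cell lines keep a low level of these transcripts without added interferon.

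The promoter letters of the genes are shown because the ISRE is the element that these genes share. The core GAAANNGAAA was searched on both strands of RefSeq promoters (GRCh38.p14, 250 bases before to 50 bases after each start), of which 8 of the 10 genes had an entry. It was found in 7 of these 8, namely IFIT1, IFIT3, ISG15, MX1, OAS3, IFI6 and IFI27, against 4.38% of all 27305 genes with an entry and 3.57% of all 35116 promoters. Genes with several starts have several windows. OAS1 lacked the core but held GAAANGAAA, a version with 1 base between the repeats that was looked for after the sequences were seen and that occurs in 3.87% of genes. In the lines that follow, capitals mark the matches, overlapping ones included, read 5′ to 3′ on the strand of the gene, where a match on the other strand appears as TTTC repeats. The stretches of OAS1 and OAS3 overlap annotated exons of the same genes and are kept short, and the others overlap no annotated exon.
IFI27 (chr14:94110616-94110662, plus strand): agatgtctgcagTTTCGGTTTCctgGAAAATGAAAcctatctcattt
IFI6 (chr1:27672286-27672319, minus strand): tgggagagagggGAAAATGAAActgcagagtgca
IFIT1 (chr10:89392495-89392541, plus strand): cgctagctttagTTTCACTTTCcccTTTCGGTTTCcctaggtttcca
IFIT3 (chr10:89327863-89327896, plus strand): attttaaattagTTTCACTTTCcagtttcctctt
ISG15 (chr1:1013372-1013411, plus strand): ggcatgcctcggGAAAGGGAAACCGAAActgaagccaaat
OAS3 (chr12:112938319-112938347, plus strand): ctagaaaGAAACGAAACTGAAAgcaggga
OAS1 (chr12:112906933-112906961, plus strand): ctcccttctgagGAAACGAAAccaacagc
MX1 (chr21:41431842-41431875, plus strand): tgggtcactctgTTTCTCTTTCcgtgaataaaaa

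IFI27 holds 2 cores in 47 printed bases, 1 on each strand, and IFIT1 holds 2 on the same strand. The lines above are a selection, since IFIT3 had 4 cores over 2 windows, IFI6 had 3, and MX1 and OAS3 had 2 each. In ISG15 the 2 cores overlap, so that 3 GAAA repeats run through 16 bases. A match of letters is a description of the sequence and not a measurement of binding.

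Total estimated counts ran from 18195949 to 26883948 per sample. Values are given as normalized counts, that is, counts scaled by upper quartile factors, and 3 counts in a library, the number taken as the floor of detection, equal 2.30 to 3.48 normalized counts. DCAF1 itself stood at 797, 971 and 838 normalized counts in Control sh replicates 1, 2 and 3 and at 760.3, 507 and 481 in VprBP sh, a log2 fold change of −0.58 (SE 0.17, edgeR adjusted p = 0.0125, n = 3 per group). Its groups did not overlap, but VprBP sh replicate 1 lay close to the control samples. In both groups replicates 2 and 3 were far closer to each other than to replicate 1. The chi-square of their counts over its degrees of freedom, where 1 is sampling noise, came to 2.58 for the control pair and 2.44 for the knockdown pair, against 20.3 to 34.3 for pairs with replicate 1, so that replicates 2 and 3 are near repeats of each other. They entered the test as separate samples, as labelled, and were summed in an alternative given below. The labelled cell type was not borne out by its markers. Of 8 melanocyte markers 4 had a row, with summed levels of 199 to 236 (Control sh) and 244 to 308 (VprBP sh) normalized counts, while TYR, DCT, SOX10 and S100B were not analysed here. Of 9 urothelial markers 7 had a row, with sums of 93810 to 105208 in the control and 25088 to 28539 in the knockdown, and LD611 is named as the cell source in the labels. KRT5 and KRT7 carried nearly all of this sum, and the list did not move as a block. KRT5 (log2 fold change −4.22), UPK2 (−2.25) and UPK1B, with 500.0, 641 and 709 counts against 0 in each VprBP sh sample, fell, KRT7 (−0.70) stayed under 2-fold, UPK1A had too few counts to be tested, and GATA3, with 7, 1 and 0 counts against 1580.0, 1334 and 1873, and PPARG (1.39) rose. Of 7 leukocyte markers only CD14 and ITGAM had a row, with sums of 644 to 840.0 (Control sh) and 134 to 476 (VprBP sh). The part of these marker differences in the results was not tested. For any transcript that is lower in these bulk samples, fewer cells of a type and less RNA per cell cannot be told apart.

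VprBP sh and Control sh were compared to ask which genes depend on VprBP, and here whether its knockdown moved the effector genes. Of the 10 genes, 8 fell in the libraries labelled VprBP sh and none rose. A gene was called at an edgeR adjusted p under 0.05, over all genes tested, and a fold change over 2. IFI27 went from 2533 ± 2310.4 normalized counts to the floor of detection, IFI6 fell 18.7-fold, IFIT2 6.80-fold and IFIT3 5.71-fold, and OAS3, ISG15, OAS2 and IFIT1 fell between 3.40-fold and 2.30-fold. MX1 and OAS1 did not pass. The share called lower was 22% of all genes tested and the share called higher 24.5%, so that a call was common, with 46.4% of genes in either direction and 76.4% past the adjusted p at any fold. The median log2 fold change of the 10 genes was −1.70, against 0.08 over all genes tested, and in 8 of the 10 all VprBP sh values lay below all Control sh values, which holds for 37.3% of all genes. The 10 genes summed to 1200.0, 524 and 525 CPM (counts scaled to a common library total) in Control sh replicates 1, 2 and 3 and to 205, 240.0 and 243 in VprBP sh. The libraries of replicate 1 thus lay at the outer ends, highest in Control sh and lowest in VprBP sh. VprBP sh replicate 1 was also the knockdown sample with the most DCAF1 left (760.3 normalized counts, against 507 and 481). Within the knockdown group the effector sum was thus lowest where DCAF1 was least reduced, a contrast that rests on 1 library. How the effector level relates to the DCAF1 level was not tested.

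**Figure D1:**
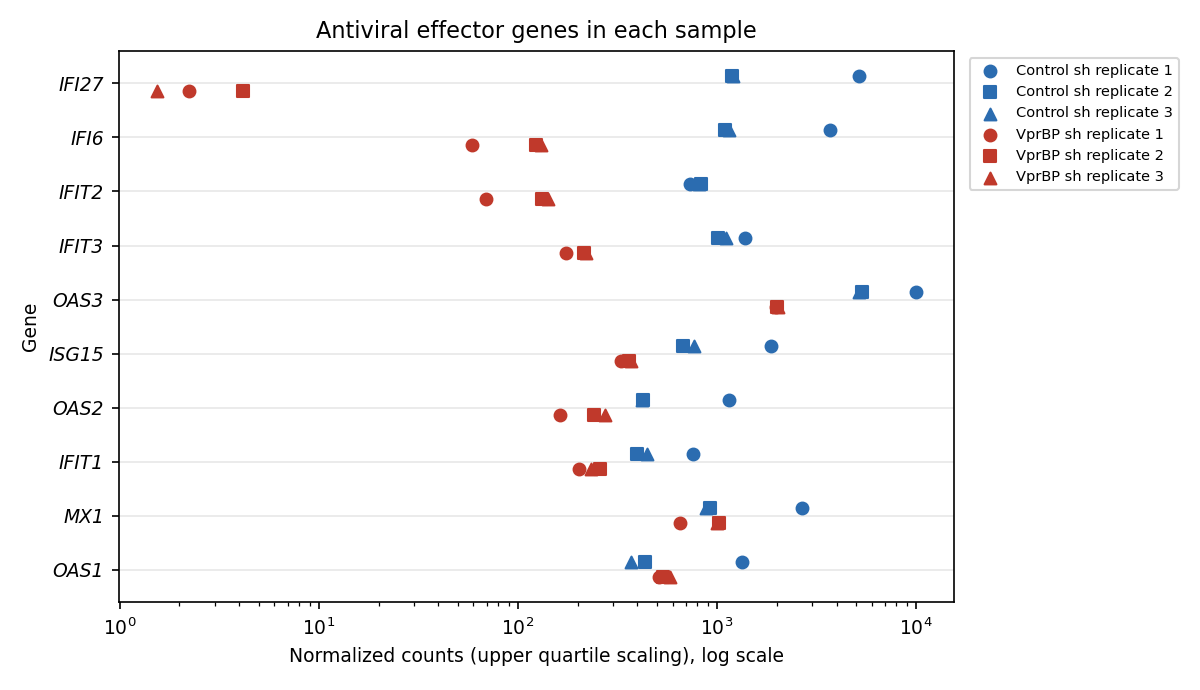
Normalized counts (log axis) of the 10 effector genes in each of the 6 samples, ordered by fold change, with a circle, square and triangle for replicates 1, 2 and 3. IFI27 falls to between 1.53 and 4.16 in VprBP sh, the groups of 8 genes lie apart, and those of MX1 and OAS1 overlap, with Control sh replicate 1 to the right of the other samples.

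IFI27 (ENSG00000165949.13, hg38 chromosome 14, 94104836 to 94116695, plus strand), a mitochondrial and nuclear membrane protein that is among the most strongly interferon-induced transcripts, changed most. The control samples held 4487, 1101 and 1267 counts of it, the knockdown samples 2, 4 and 2. In normalized counts these were 5201, 1197 and 1201 against 2.23, 4.16 and 1.53. Every VprBP sh sample was near the floor of 3 counts, and every Control sh sample was far above it. The summed counts, 6855 against 8, gave a 955-fold lower level after scaling, with a 95% exact (Clopper-Pearson) interval of 484 to 2213 that covers counting error only. The fitted log2 fold change was −9.89 (SE 0.96, edgeR adjusted p = 9.14e-06).

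IFI6 (ENSG00000126709.16, chromosome 1, 27666064 to 27672212, minus strand), an endoplasmic reticulum and mitochondrial membrane protein of the same family, stood at 3719, 1096 and 1148 normalized counts in Control sh and at 59.2, 124 and 131 in VprBP sh. The groups were far apart, and replicate 1 was the highest of its group in Control sh and the lowest in VprBP sh. The log2 fold change was −4.22 (SE 0.53, edgeR adjusted p = 5.34e-05). The close relatives of IFI27 on chromosome 14 were lower as well. IFI27L2 went from 190.0, 181 and 176 counts to 0, 0 and 1, a ratio of summed counts of 610-fold with a 95% counting interval of 109 to 24120. IFI27L1 went from 283 ± 40.2 to 149 ± 5.96 normalized counts (mean ± SD, n = 3), a log2 fold change of −0.92 (SE 0.15, edgeR adjusted p = 0.000304) that stayed under the 2-fold limit.

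The IFIT genes are neighbours on chromosome 10, all on the plus strand. IFIT2 (ENSG00000119922.11, 89283694 to 89309271) stood at 733, 832 and 811 normalized counts in Control sh and at 69.2, 133 and 143 in VprBP sh. Its control samples were close together, and its log2 fold change was −2.77 (SE 0.22, edgeR adjusted p = 2.41e-06). IFIT3 (ENSG00000119917.15, 89327307 to 89377473), which forms a complex with IFIT1 and IFIT2, stood at 1387, 1011 and 1107 and at 175, 215 and 222. Its groups were likewise far apart, with a log2 fold change of −2.51 (SE 0.15, edgeR adjusted p = 3.59e-07). IFIT1 (ENSG00000185745.10, 89392546 to 89406487), which recognises the cap of foreign RNA, stood at 759, 397 and 447 and at 203, 259 and 233. Here control replicates 2 and 3 lay much nearer to the knockdown samples, and the log2 fold change was −1.20 (SE 0.23, edgeR adjusted p = 0.00106). IFIT5, the related gene beside them, went from 367 ± 38.2 to 221 ± 12.1 normalized counts, a log2 fold change of −0.74 (SE 0.13, edgeR adjusted p = 0.000494), under the 2-fold limit. IFIT1B was not analysed here. IFIT1, IFIT2 and IFIT3 lie within the span of LIPA on the other strand, whose level went from 3491 ± 244 to 2271 ± 33.99 (log2 fold change −0.62). Whether the authors counted reads by strand is not given in the sources used here, and the share of LIPA reads in IFIT counts was not tested.

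ISG15 (ENSG00000187608.10, chromosome 1, 1001138 to 1014540, plus strand) stood at 1875, 679 and 769 normalized counts in Control sh and at 329, 365 and 372 in VprBP sh. The lowest control sample was above the highest knockdown sample, and the log2 fold change was −1.64 (SE 0.34, edgeR adjusted p = 0.00162). The enzymes that handle ISG15 were measured too. The conjugating enzyme UBE2L6 fell from 3941 ± 311 to 1595 ± 239 (log2 fold change −1.30, SE 0.12), and the ligase HERC5 fell from 370.1 ± 98.4 to 31.3 ± 4.73 (−3.57, SE 0.24). The related HERC6 fell from 283 ± 86.5 to 56.7 ± 5.60 (−2.32, SE 0.24). The activating enzyme UBA7 had a log2 fold change of −0.61 (SE 0.22, edgeR adjusted p = 0.0287), which did not reach 2-fold. USP18, the protease that removes ISG15 and also restrains the type I receptor, rose from 154 ± 22.7 to 639 ± 64.3 (2.05, SE 0.14, edgeR adjusted p = 1.01e-06). It thus moved against ISG15 and against its conjugating enzymes.

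The OAS genes form a cluster on chromosome 12, all on the plus strand. OAS3 (ENSG00000111331.14, 112938051 to 112976460), the largest of the enzymes, stood at 10025, 5367 and 5198 normalized counts in Control sh and at 1994, 2017 and 2039.8 in VprBP sh. Its knockdown samples were almost equal, and the log2 fold change was −1.77 (SE 0.23, edgeR adjusted p = 6.57e-05). OAS2 (ENSG00000111335.14, 112978395 to 113011723) stood at 1152, 426 and 424 and at 164, 241 and 274. The groups were apart, with a log2 fold change of −1.55 (SE 0.38, edgeR adjusted p = 0.00444). OAS1 (ENSG00000089127.15, 112905856 to 112933219) stood at 1339, 437 and 370 and at 511, 538 and 585. Its knockdown samples lay between the first control sample and the other two, and the log2 fold change of −0.39 (SE 0.41, edgeR adjusted p = 0.411) did not pass. OASL, a relative that lacks the enzymatic activity, fell from 109 ± 56.7 to 13.6 ± 5.15 (−2.97, SE 0.45). Of other genes linked to the OAS enzymes, PDE12, which degrades oligoadenylates, at 0.56 (SE 0.11) and ABCE1, a ribosome recycling factor, at −0.48 (SE 0.15) passed the adjusted p without reaching 2-fold.

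MX1 (ENSG00000157601.15, chromosome 21, 41420020 to 41470071, plus strand) stood at 2689, 921 and 885 normalized counts in Control sh and at 655, 1021 and 998 in VprBP sh. The groups overlapped, and the log2 fold change of −0.74 (SE 0.39, edgeR adjusted p = 0.112) did not pass. Its neighbour and relative MX2, which restricts retroviruses at the nuclear pore, fell from 999 ± 223 to 29.7 ± 5.79 (−5.08, SE 0.22, edgeR adjusted p = 3.89e-08), with the groups far apart. The 3′ part of MX1 overlaps TMPRSS2, a protease gene on the other strand that was looked at because of this overlap. TMPRSS2 rose from 17.2 ± 2.68 to 4432 ± 715 normalized counts (7.99, SE 0.19, edgeR adjusted p = 1.42e-09). Its part in the MX1 counts of VprBP sh was not tested. In 5 of the 6 samples the deposited MX1 value was fractional, against 0 to 3 samples for the other effector genes. Fractional values were common, as 59.4% of all deposited values were whole, and their source was not tested.

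The ratio between family members was compared in 4 pairs with an exact two-sided permutation test, in which 3 against 3 samples cannot give a p below 0.1. The ratio of OAS1 to OAS3 normalized counts was 0.134, 0.0814 and 0.0711 in Control sh and 0.256, 0.267 and 0.287 in VprBP sh, a log2 difference of 1.56 (exact permutation p = 0.1, adjusted over the 4 pairs 0.2). IFIT1 to IFIT3 likewise differed without overlap, at 0.547, 0.392 and 0.403 against 1.16, 1.20 and 1.05, a log2 difference of 1.36 (exact permutation p = 0.1, adjusted 0.2). The ratio of OAS2 to OAS3 (log2 difference 0.28, exact permutation p = 0.2, adjusted 0.267) and that of IFIT2 to IFIT3 (−0.34, exact permutation p = 0.4, adjusted 0.4) overlapped between groups. In these samples OAS3 lay lower relative to OAS1, and IFIT3 lower relative to IFIT1, in every VprBP sh sample than in any Control sh sample. Non-overlap was common, since single genes lay apart for 37.3% (lower) and 42.2% (higher) of all genes tested. No share was computed for other ratios. The permutation test cannot reach a p under 0.05 with 3 against 3 samples, so no conclusion is drawn from it.

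The spread within the control group had a common form. Control sh replicate 1 was at least 1.5 times each of the other control samples in 8 of the 10 genes, the exceptions being IFIT2 and IFIT3, and this held for 4.76% of all genes tested. The median ratio of replicate 1 to the mean of replicates 2 and 3 was 2.65 for the effector genes and 0.985 over all genes. It reached 4.34 for IFI27, 3.32 for IFI6 and OAS1 and 2.98 for MX1, while IFIT2 was at 0.892. In VprBP sh, replicate 1 was below both others in 9 of the 10 genes, IFI27 being the exception, against 41% of all genes, with a median ratio of 0.794 against 0.997. Both features together were found in 7 of the 10 genes and in 2.30% of all genes. IRF9, the DNA-binding part of ISGF3, had the same form, with 1552, 550.1 and 599 normalized counts in the control and 267, 398 and 346 in the knockdown. What set replicate 1 apart was not tested.

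**Figure D2:**
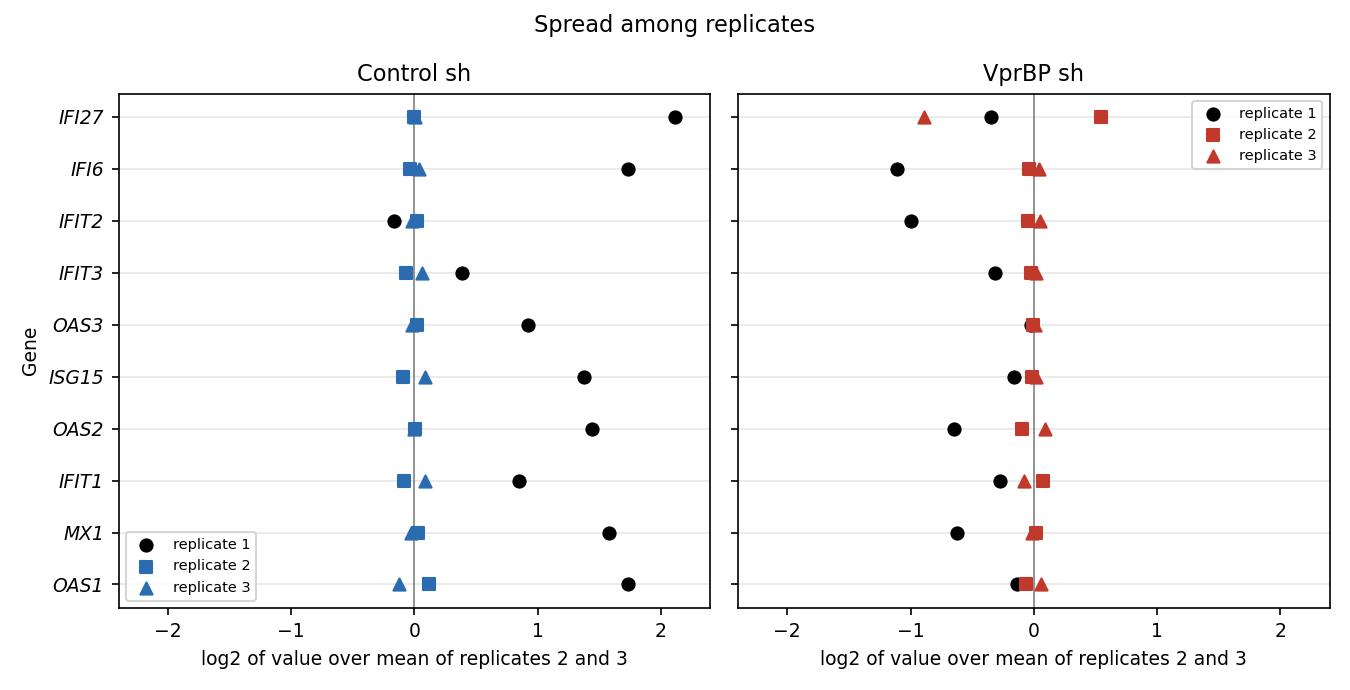
The log2 of each sample's value over the mean of replicates 2 and 3 of its own group, for Control sh on the left and VprBP sh on the right. Control sh replicate 1 (black) lies to the right of the others in every gene but IFIT2, and VprBP sh replicate 1 lies to the left in every gene but IFI27.

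The calls were therefore read again without this library. Without Control sh replicate 1, 6 of the 10 genes were called lower, against 21.8% of all genes, namely IFIT2 (−2.82), IFIT3 (−2.37), OAS3 (−1.39), IFI6 (−3.40), IFI27 (−8.82) and ISG15 (−1.03). IFIT1 at −0.87 and OAS2 at −0.90 lost the 2-fold limit while their edgeR adjusted p stayed at 0.000891 and 0.00519. MX1 moved to −0.02 (edgeR adjusted p = 0.939), and OAS1 turned to 0.43 (edgeR adjusted p = 0.0127), higher in VprBP sh. Without replicate 1 of both groups, an alternative chosen after seeing the data, IFIT2, IFIT3, OAS3, IFI6 and IFI27 were called, 5 of the 10 against 22.8% of all genes, ISG15 (−0.98), IFIT1 (−0.79) and OAS2 (−0.71) lay under 2-fold, and MX1 (0.16) and OAS1 (0.49) were higher. The calls of IFIT2, IFIT3, OAS3, IFI6 and IFI27 hence did not need replicate 1, and the size of the falls of OAS3, IFI6 and IFI27 rested on it in part. The control samples left in these fits, replicates 2 and 3, are near repeats of each other. The p-values given here therefore measure little more than the spread between repeats, and do not show that the falls or the higher OAS1 would recur in separate cultures. When replicates 2 and 3 of each group were summed into 1 sample, the same 8 genes and MX1 (−1.11, edgeR adjusted p = 0.031) passed. In that fit 8340 of 18038 genes were called in either direction. Control sh replicate 1 was then 1 of only 2 control samples and so weighed more. The pass of MX1, at −0.02 without that library, therefore does not show a fall apart from it.

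**Figure D3:**
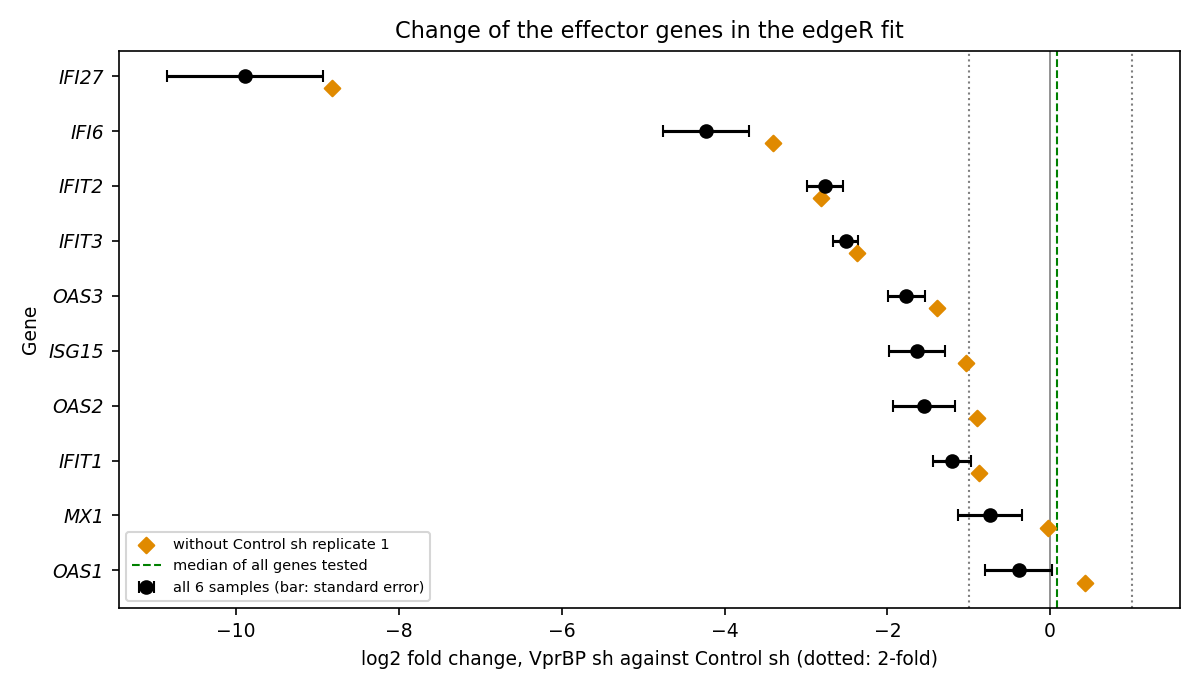
Log2 fold change of each gene in all 6 samples (black, bars of 1 standard error) and without Control sh replicate 1 (orange), with the 2-fold limits dotted and the median of all genes tested, 0.08, dashed. IFIT2 and IFIT3 hardly move, while OAS1 crosses 0 from −0.39 to 0.43.

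The order of the genes by level was read per kilobase of the canonical GENCODE 44 transcript, since transcripts run from 637 bases for ISG15 to 6599 for OAS3. In Control sh, IFI27 came first with 3494 ± 3187 normalized counts per kilobase (SD, n = 3), followed by IFI6 with 2448 ± 1847, ISG15 with 1739 ± 1046 and OAS3 with 1040.0 ± 415. MX1 (539.7 ± 372), IFIT3 (489 ± 81.8) and OAS1 (438 ± 332) came next, and IFIT2 (233 ± 15.4), OAS2 (144 ± 90.8) and IFIT1 (124 ± 45.7) were lowest. The SDs carry the high first replicate, which most of the genes share, and by SD alone neighbours in this order did not differ. Within each control sample, however, IFI27, IFI6, ISG15 and OAS3 came in this same order above all the others. Among the other genes the order varied between samples. In VprBP sh the order changed. ISG15 was first with 558 ± 35.7, followed by OAS1 (334 ± 22.8), MX1 (321 ± 73.8) and OAS3 (306 ± 3.47). MX1 overlapped with both of its neighbours, while every OAS1 sample lay above every OAS3 sample. IFI6 (129 ± 48.7), IFIT3 (85.3 ± 10.5), IFIT1 (53.8 ± 6.46), OAS2 (49.0 ± 12.2) and IFIT2 (33.9 ± 11.8) followed, and IFI27, the highest in Control sh, was last with 3.64 ± 1.87. In this group ISG15 lay above its next neighbour, OAS3 above IFI6, IFIT3 above IFIT1 and IFIT2 above IFI27 by more than their spread, and the other neighbours did not.

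Other genes of the pathway were read from lists of ligands, receptors, signalling proteins and targets. Of 10 interferon genes only IFNE, an epithelial type I interferon, had a row, its counts being 11, 7 and 4 in the control and 0, 2 and 3 in the knockdown, too few to be tested. The other 9 were not analysed here. None of the 6 receptor chains changed 2-fold. IFNAR1 went from 1184 ± 133 to 1997 ± 42.4 normalized counts (0.75, SE 0.10) and IL10RB had 0.53 (SE 0.10), both with higher values in VprBP sh, while IFNAR2 (−0.32, SE 0.13), IFNLR1 (−0.49, SE 0.14) and IFNGR2 (−0.64, SE 0.17) had lower ones, all 5 with an edgeR adjusted p under 0.05. IFNGR1 was at −0.01 (SE 0.08, edgeR adjusted p = 0.916). Of all genes tested, 76.4% passed the adjusted p and 46.4% were called.

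Among 13 kinases, transcription factors and inhibitors, 2 rose and 4 fell (median log2 fold change −0.09). These are shares of 15.4% and 30.8%, beside 24.5% and 22% of all genes tested. TYK2, a kinase of the type I receptor, rose from 1989.9 ± 18.03 to 9954 ± 1220.2 (2.32, SE 0.10, edgeR adjusted p = 4.57e-08). JAK1 (0.72, SE 0.07) and JAK2 (0.69, SE 0.11) had values above the controls that did not reach 2-fold, and STAT2 was at −0.13 (SE 0.11, edgeR adjusted p = 0.269). IRF9 fell (−1.41, SE 0.37, edgeR adjusted p = 0.00587), with the spread given above. IRF1, a factor that binds the same kind of element, fell from 3848 ± 561 to 1040.2 ± 184 (−1.89, SE 0.15), while IRF2, its antagonist, was at −0.09 (SE 0.12, edgeR adjusted p = 0.525). IRF7, the factor that drives interferon alpha genes and is itself interferon-induced, went from 9, 1 and 2 counts in the control samples to 519, 849 and 1126 in the knockdown, a ratio of 186-fold with a 95% counting interval of 107 to 361.4. The inhibitors SOCS1 (−1.17, SE 0.15) and SOCS3 (−3.81, SE 0.11) fell, SOCS3 from 1631 ± 87.0 to 116 ± 6.03, and PIAS1 (−0.38, SE 0.10) and PTPN2 (0.32, SE 0.09) did not reach 2-fold. The genes of this list therefore did not move in 1 direction, as genes elsewhere did not.

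Of 34 other interferon-stimulated genes, 20 fell and 3 rose (median log2 fold change −1.34), and of 7 tested genes induced mainly by interferon gamma, 4 fell and 1 rose (median −1.20). IFI16, a DNA sensor, went from 4249, 4304 and 5247 counts to 0 in each VprBP sh sample, at least 1663-fold lower against a floor of 3 counts per library. IDO1, which degrades tryptophan, had 149, 215 and 237 counts and 0, 0 and 1, a ratio of summed counts of 670-fold with a 95% counting interval of 120 to 26500, which is not comparable with that bound. IFITM1, a membrane protein that blocks viral entry, fell from 3426 ± 910 to 18.2 ± 9.39 normalized counts (−7.48, SE 0.31), and EPSTI1 from 687 ± 22.2 to 29.7 ± 4.03 (−4.54, SE 0.14). Against these, BST2, the tetherin that holds budding viruses at the membrane, rose from 28.1 ± 18.8 to 3472 ± 315 (6.98, SE 0.28). ISG20, an exonuclease, rose from 27.5 ± 4.31 to 227 ± 60.4 (3.04, SE 0.26), CMPK2, a mitochondrial nucleotide kinase, from 27.8 ± 30.2 to 96.8 ± 22.7 (1.83, SE 0.58, edgeR adjusted p = 0.0165), and GBP2, a GTPase, from 424 ± 9.16 to 1183 ± 76.8 (1.48, SE 0.10). Over all lists other than the effectors, 34 of 73 genes tested were called lower (46.6%) and 7 higher (9.59%), against 22% and 24.5% of all genes. Some passed the low-count filter through 1 group alone, such as IFI16, IFI27L2 and IDO1 through Control sh and IRF7 through VprBP sh. With at least 10 counts required in every sample, 27 of 63 were called lower and 5 higher. Over all genes, 4690 of 13103 were then called in either direction. The lists were chosen with earlier results of these data known, so these shares are a description only. Control sh replicate 1 was at least 1.5 times both other controls in 13 of the 73 genes (17.8%), beside 4.76% of all genes tested. Among the 13 were IRF9, OASL, HERC5, HERC6, BST2 and CMPK2. IRF7 was among them too, but its control counts lay near or under the floor in replicates 2 and 3. None of the 7 tested genes of the gamma list was among them, which is too few genes to set against that share.

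**Figure D4:**
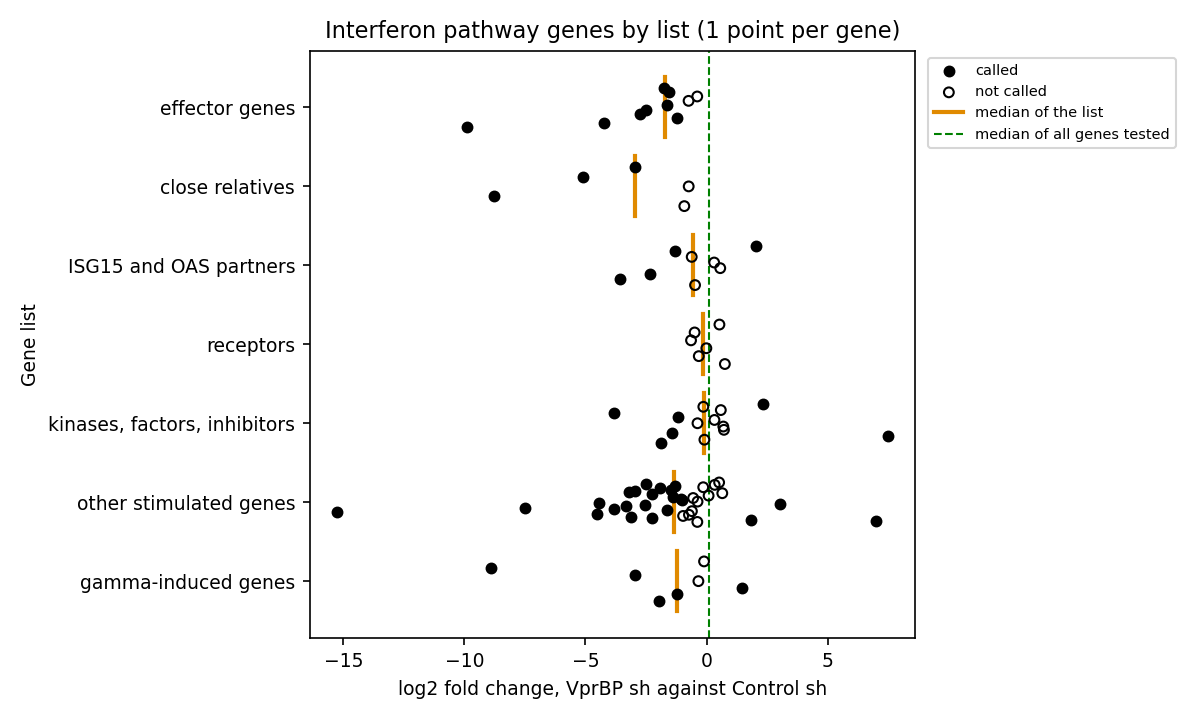
Log2 fold change of every tested gene of each list, filled where called and open where not, with the median of the list in orange and that of all genes tested dashed. The effector genes lie at or below 0, the receptors lie between −0.64 and 0.75, and the leftmost point, IFI16, has no count in VprBP sh, so that its position depends on the fit and is not a measured size.

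The genes beside the effectors were examined to see whether whole loci moved. The 10 genes lie at 7 loci with 25 neighbouring protein-coding genes, the 2 nearest on each side, of which 22 were tested. Of these, 4 fell and 7 rose, shares of 18.2% and 31.8% beside 22% and 24.5% of all genes tested, so the neighbours were called about as often as genes elsewhere. Besides IFI27L2 and MX2, these falls were in SLC16A12 beside IFIT1, with 461 counts over the Control sh samples and 0 in VprBP sh, at least 55.2-fold lower, and in PPP4R4 beside IFI27, with 3212 counts and 0, at least 388-fold lower, both against a floor of 3 counts per library. At the IFI27 locus 3 protein-coding genes in a row, IFI27, IFI27L2 and PPP4R4, were thus at or near the floor in VprBP sh. IFI27L1, on the other side of IFI27, kept more than 100 normalized counts in every sample. Of the called neighbours, IFI27L2, SLC16A12 and PPP4R4 passed the filter on low counts through Control sh alone. Some of those that rose passed it through VprBP sh alone. Passing in this way makes a call likely, and with at least 10 counts required in every sample 4 of 15 neighbours were called.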

How the data were processed

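RNA-seq of 3 Control sh and 3 VprBP sh samples was analysed, grouped by sample titles. The authors aligned single-end reads to hg38 with STAR, quantified genes in Partek Flow and deposited estimated counts, neither normalized nor pooled, of which 59.4% are whole. The labels name a SMARTER kit and the methods a strand-specific KAPA kit. The design assumed counts, and the estimated counts were rounded. Each of the 21494 genes sums to at least 10. The main test was edgeR 4.0.16 (R 4.3.3), quasi-likelihood, upper quartile factors, low-count filter with a minimum of 10, Benjamini-Hochberg over 16756 genes, no replicate block. Partek's Gene Specific Algorithm was not used here. SE is the log2 fold change over the square root of F. Alternatives were other scalings, DESeq2 1.42.0, limma-voom (limma 3.58.1), other filters, a replicate block and left-out or summed samples. Tests were tried on simulated data. Ratios used exact permutation (scipy 1.17.1). Genes and lists were chosen with earlier results of these data known. Named were all effectors, listed relatives and pathway genes, of the 2 target lists the 4 largest called changes per direction, DCAF1, and neighbours called as their effector. Some listed genes are not reported here. TMPRSS2 and LIPA were named for their overlap. Intervals and floors cover counting error only.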

Additional observations from a re-analysis of the deposited data

How the results depend on the processing

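All 10 effector genes had a negative log2 fold change, and none was called higher, under each scaling and tool, although the median of all genes moved from 0.08 to −0.01 (TMM), −0.04 (DESeq2) and 0.29 (library size alone), where OAS1 was at −0.17 and IFIT1 (−0.99) lost its call. Leaving out 1 library at a time gave 6 to 9 effectors called lower, 7949 to 8142 genes called, 31 to 36 pathway genes lower and 6 to 8 higher, and 11 to 12 neighbours called. OAS1 ranged from −0.71 to 0.43 and reversed at 0.43, without Control sh replicate 1, and without replicate 1 of both groups OAS1 (0.49) and MX1 (0.16) reversed and 5 effectors were called. MX1 passed without Control sh replicate 2 (−1.01) or 3 (−1.02). Requiring at least 10 counts in every sample left 13103 genes, 4690 of them called against 7778, and 4 of 15 neighbours called against 11 of 22. Under this filter 7 of 9 effectors were called lower, and of 63 pathway genes 27 were called lower and 5 higher. IFI27 was then not tested, and fewer genes were tested by construction. With the replicate number as a block, 7686 genes, 8 effectors, 34 and 7 pathway genes and 11 neighbours were called, no effector's call changed, and OAS2 had −1.39 (edgeR adjusted p = 0.0284). Samples with the same number did not deviate together (r = −0.145, −0.0298 and −0.106 over 13320 genes). No pairing by number was seen in this check, which cannot show whether such samples were handled together. Depth limits IFI27, IFNE and other genes at or near 3 counts.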

Other observations

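The ISRE core was also read against the fold changes of all genes with a RefSeq promoter entry, as a description without a test. The 466 tested genes with the core had a median log2 fold change of −0.08, with 27% called lower and 19.5% called higher. The 11319 tested genes without it had a median of 0.10, with 20.1% lower and 23.4% higher. When the effector genes and all listed pathway genes were left out, the 431 remaining genes with the core had a median of −0.01, with 24.1% lower and 20.6% higher.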
